A study of Macaca mulatta with 20 samples.

Results

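The molecules described here are 9 genes with which blood leukocytes hold on to the vessel wall and pass through it. They are SELPLG, ITGAL, ITGAM, ITGAX, ITGB2, ICAM3, PECAM1, PVRL2 and AMICA1, measured in whole blood of rhesus macaques (Macaca mulatta) before and after X-irradiation of the thorax. Members were taken as the probes whose gene name on the array is one of these symbols and whose signal was well above background on at least 5 of the 20 arrays. Of 16 such probes 14 were kept, and each of the 9 genes has at least 1 of them, out of 19961 probes kept by the same rule and 34127 on the array. The probes left out were A_33_P3277973 of AMICA1, well above background on 1 array, and A_23_P352870 of PVRL2, well above background on 2.

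The arrays fall into groups of 5. The pre-irradiation group was drawn before exposure, and the later groups, named day 2, day 5 or day 30, were drawn 2, 5 or 30 days after a single 10 Gy dose to the whole thorax. The animals were males of Chinese origin in the arm of a larger study that received no mitigating drug, no unirradiated animals are among these arrays, and 1 RNA sample, which the labels do not identify, was a pool from different animals. The labels give no ages. RNA was depleted of globin transcripts and hybridized to 1-colour Agilent arrays of human design, 4 arrays to a slide with 1 array of each group on each of 5 slides.

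Leukocytes leave the blood in steps. Selectins catch the sialylated and sulfated ligand PSGL-1, which SELPLG encodes, so that the cell rolls; the beta-2 integrins, each made of an alpha chain and the shared beta chain of ITGB2, are then switched on and bind intercellular adhesion molecules; and the cell crosses between endothelial cells with the help of PECAM1, nectins and junctional adhesion molecules. In whole blood these transcripts come mostly from neutrophils, monocytes, lymphocytes and platelets, which carry them in different amounts.

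The probes are 60 bases long and were designed on human transcripts. Positions are those of the array annotation on human genome build hg19, which names no exon, and differences between the human and macaque sequences were not used here. The genes ITGAL, ITGAM and ITGAX lie on chromosome 16, on the forward strand, where their probes start at 30533908, 31343816 and, for the pair of ITGAX probes, 31393951 and 31368753. ICAM3 and PVRL2 lie on chromosome 19. The following 4 probes are shown because they lie in coding sequence of genes that act at successive steps from rolling to crossing, and each is printed 5′ to 3′ in lower case. The SELPLG and ICAM3 probes lie in the part that encodes the membrane-spanning segment, the PECAM1 probe in the part that encodes the cytoplasmic tail, and the ITGB2 probe is annotated across 5241 bases of genome, so that it crosses an exon junction.
SELPLG A_33_P3256303, chr12:109017075-109017134, reverse strand: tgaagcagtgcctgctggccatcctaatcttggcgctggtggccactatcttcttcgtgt
ITGB2 A_23_P430411, chr21:46321625-46326865, reverse strand: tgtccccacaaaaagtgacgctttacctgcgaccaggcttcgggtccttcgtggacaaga
ICAM3 A_23_P164691, chr19:10444654-10444713, reverse strand: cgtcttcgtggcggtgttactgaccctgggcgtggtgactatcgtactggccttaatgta
PECAM1 A_33_P3229402, chr17:62407257-62407316, reverse strand: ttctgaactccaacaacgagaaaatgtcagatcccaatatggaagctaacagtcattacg

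PVRL2, AMICA1, ICAM3, ITGAM and SELPLG were higher than before irradiation on average on each of the 3 days, while the 3 probes of PECAM1 stayed within 0.16 of their pre-irradiation mean on the log2 scale, or within 0.40 with normexp background correction. The largest mean differences were those of PVRL2 at day 2, of 1.02 on the log2 scale, and of ITGAM at day 30, of 1.04, which was 0.60 without replicate 1. No member passed the rule for a call, with the study's limits of p under 0.005 and a false discovery rate (FDR) under 10%. Here it was applied with Benjamini-Hochberg adjustment in limma fits blocked by replicate number. That rule called 0.0551% of all tested probes at day 2, 0% at day 5 and 0.02% at day 30. At p under 0.005 alone PVRL2 was higher on each day and AMICA1 at days 5 and 30, and for these results the FDR limit decided. The other member results did not reach p under 0.005. That makes 1, 2 and 2 of the 14 probes at days 2, 5 and 30, beside 2.66%, 1.61% and 3.14% of all probes in either direction. The smallest adjusted p-values of any member were 0.178 at day 2, 0.288 at day 5 and 0.141 at day 30 in limma.

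By the unadjusted p-value of the same fit, under 0.05, 6 of the 14 probes were higher at day 2, 2 at day 5 and 5 at day 30, and 0 were lower on any of these days. With normexp background correction the day 2 count was 1. The share of all tested probes that were higher at that threshold was 8.91% at day 2, 7.2% at day 5 and 8.58% at day 30, and the share that were lower was 5.92%, 4.15% and 8.97%. At day 5, 1438 of the 2266 probes at that threshold were higher, against 664 of 1805 with median scaling, which gave 1 higher member probe. With the slide in place of the replicate number as the block, the counts were 2, 0 and 3 probes. They were those of PVRL2 and SELPLG at day 2 and of ICAM3, ITGAM and PVRL2 at day 30. The median difference over the 14 probes was 0.36 at day 2, 0.08 at day 5 and 0.28 at day 30 on the log2 scale, and over all tested probes it was -0.02, 0.02 and 0.01. On no day did the 5 arrays of a member probe all lie above its 5 pre-irradiation arrays, which 0.581%, 0.311% and 1.09% of the probes did at days 2, 5 and 30. In a bulk sample such as whole blood, more cells of a type cannot be told apart from more RNA per cell.

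**Figure D1:**
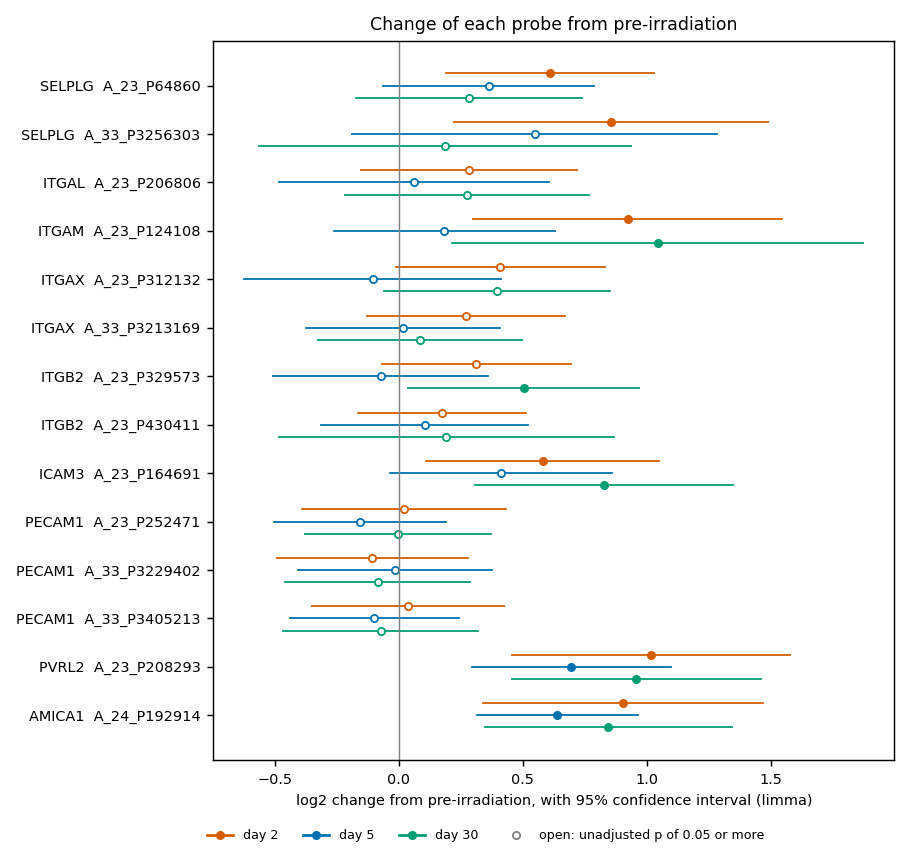
Each point is the log2 change of 1 probe from pre-irradiation in limma with its 95% confidence interval, at each later day, and filled points have an unadjusted p-value under 0.05. The intervals of PVRL2 and AMICA1 lie above 0 on all 3 days, and those of the 3 PECAM1 probes span 0 on all 3.

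SELPLG encodes PSGL-1, the ligand through which leukocytes roll on P-, E- and L-selectin. Values throughout are levels, the log2 processed signal minus the 75th percentile of its array, given in the order of replicates 1 to 5. Its probe A_23_P64860 (chromosome 12, from 109016391, reverse strand) had levels of 3.31, 2.95, 3.37, 2.89 and 3.58 before irradiation and of 4.06, 3.05, 4.52, 3.44 and 4.08 at day 2. All 5 day 2 arrays were above the pre-irradiation array of the same number, replicate 2 by least, and 3 of them lay above every pre-irradiation array. The levels were 4.31, 3.08, 3.30, 3.28 and 3.95 at day 5 and 3.97, 3.32, 2.96, 3.23 and 4.04 at day 30. Here the groups overlapped more, and replicate 3 had come back to its pre-irradiation level by day 5 and lay below it at day 30. The mean difference was 0.61 at day 2 (standard error 0.18, n = 5 pairs, adjusted p = 0.216 in limma), 0.36 at day 5 (adjusted p = 0.506) and 0.28 at day 30 (adjusted p = 0.486). With normexp background correction the day 2 value was 0.085 and the day 30 value 0.13, and without replicate 1 the values at days 5 and 30 were 0.20 and 0.19. Without replicate 3 the day 30 value was 0.46.

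The probe in the coding sequence of SELPLG, A_33_P3256303, gave the same order of the days. Its levels were -0.76, 0.11, 0.60, -0.29 and 0.44 before irradiation and 1.27, 0.07, 1.49, 0.57 and 0.97 at day 2. At day 5 they were 1.17, 0.10, 0.16, 0.40 and 0.99, and at day 30 they were 0.89, -0.06, -0.34, 0.00 and 0.52. Replicate 1 moved most, by 2.03 at day 2, replicate 2 stayed level throughout, and replicate 3 lay below its own pre-irradiation level at days 5 and 30. The mean difference was 0.86 at day 2, 0.55 at day 5 and 0.18 at day 30 (standard errors 0.27, 0.32 and 0.33, n = 5 pairs, adjusted p = 0.235, 0.552 and 0.803 in limma). Without replicate 1 the differences were 0.56, 0.20 and -0.18, and with normexp background correction they were 0.41 at day 2 and 0.045 at day 30. Between days 2 and 30 this probe was lower by a mean of -0.67, in 5 of 5 pairs (adjusted p = 0.364 in limma), which became -0.38 without replicate 3 and -0.37 with normexp. The pair of SELPLG probes followed each other over the 20 arrays with r = 0.87 after the mean of each replicate number was taken off.

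ITGAM encodes the alpha chain (CD11b) of the Mac-1 integrin of neutrophils and monocytes, which binds complement fragments, fibrinogen and ICAM1. Its probe is printed on each array as 10 spots, of which 7 to 10 were used and had a median SD of 0.049. The levels were 1.74, 1.55, 2.26, 1.11 and 2.39 before irradiation and 3.81, 1.66, 3.16, 2.11 and 2.90 at day 2. At day 5 they were 2.52, 1.86, 2.15, 0.75 and 2.66, and at day 30 they were 4.56, 2.03, 2.64, 2.38 and 2.64. Every array of days 2 and 30 stood above the pre-irradiation array of its number, with replicate 1 farthest, while at day 5 replicates 3 and 4 were below theirs. On average ITGAM was higher by 0.92 at day 2 (standard error 0.27), by 0.18 at day 5 (standard error 0.19) and by 1.04 at day 30 (standard error 0.36), and the adjusted p-values in limma were 0.212, 0.741 and 0.214 for n = 5 pairs. Leaving out replicate 1 brought the differences at days 2, 5 and 30 to 0.63, 0.033 and 0.60, leaving out replicate 4 brought that at day 5 to 0.32, and with normexp background correction the difference at day 2 was 0.37.

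ITGAM was also lower at day 5 than at day 2, by a mean of -0.74, and higher at day 30 than at day 5, by 0.86, with unadjusted p-values under 0.05 and adjusted p-values in limma of 0.992 and 0.587. The former was -0.17 with normexp background correction, and the latter 0.56 without replicate 1. At day 5 the means of the other 3 integrin genes also lay nearer to their pre-irradiation means than at day 2, by differences that are given below. None of the members, 0 of 14 probes, was called between later days, where the rule called 0% of all probes for day 5 against day 2, 0.0551% for day 30 against day 2 and 0% for day 30 against day 5. At an unadjusted p-value under 0.05 there was 1 member probe in the first (3.47% of all probes), 1 in the second (13% of all probes) and 3 in the third (8.31% of all probes). With the slide as the block these counts were 1, 0 and 0, so that no member passed between day 30 and day 2 or day 5. The 3 probes were those of ITGAM, of ITGAX A_23_P312132, higher at day 30 by 0.50, and of ITGB2 A_23_P329573, higher by 0.58. These last differences were 0.33 with normexp for ITGAX and 0.36 without replicate 4 for ITGB2.

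ITGB2 encodes the beta-2 chain (CD18) that all leukocyte integrins of this family share, and its probe A_23_P329573 (chromosome 21, from 46305926, reverse strand) is also printed as 10 spots, with a median SD of 0.043. The levels were 5.87, 5.52, 5.74, 5.46 and 5.82 before irradiation, and 6.97, 6.00, 5.97, 6.19 and 5.80 at day 30. Of the day 30 arrays 4 lay above every pre-irradiation array, and replicate 5 did not. At day 2 the levels were 6.29, 5.59, 6.53, 5.64 and 5.92, and at day 5 they were 6.11, 5.80, 5.53, 4.73 and 5.88. The day 2 arrays were above their pre-irradiation partners in 5 of 5 pairs, by 0.79 in replicate 3, 0.42 in replicate 1 and 0.07 to 0.17 in the other 3, and replicate 4 at day 5 was the lowest of the 20 arrays. The ITGB2 difference was 0.31 at day 2, -0.07 at day 5 and 0.50 at day 30 (standard errors 0.16, 0.19 and 0.20, adjusted p = 0.416, 0.905 and 0.255 in limma). The day 2 value was 0.19 without replicate 3 and 0.20 with quantile normalization, and turned to -0.23 with normexp background correction.

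The other ITGB2 probe, A_23_P430411, is annotated on an Ensembl transcript. Its mean level before irradiation was -2.21, against 5.68 for A_23_P329573, and whether these probes measure the same transcripts was not tested. The mean differences of A_23_P430411 were 0.17, 0.10 and 0.19 on the 3 days, with standard errors of 0.15, 0.18 and 0.30. The day 5 difference was 0.022 without replicate 1 and 0.25 without replicate 4. The 2 probes of ITGB2 followed each other with r = 0.59 over 20 arrays. On A_23_P430411 replicates 3 and 5 of day 30 stood below their pre-irradiation arrays, the former by -0.74, whereas on A_23_P329573 replicate 3 was above its partner and replicate 5 differed by -0.02.

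ITGAL encodes CD11a, the alpha chain of LFA-1, the integrin with which lymphocytes and other leukocytes bind ICAM1, ICAM2 and ICAM3. Its levels were 2.25, 2.37, 2.87, 2.58 and 3.08 before irradiation and 3.03, 2.76, 3.33, 2.70 and 2.75 at day 2. The groups overlapped, and replicate 5 was lower than before. For ITGAL the mean difference was 0.28 at day 2, 0.06 at day 5 and 0.27 at day 30, with 95% confidence intervals of -0.15 to 0.72, -0.48 to 0.61 and -0.22 to 0.76 in limma. Without replicate 1 the values at days 2 and 30 were 0.16 and 0.15, without replicate 2 the day 30 value was 0.15, and without replicate 5 the day 2 value was 0.44. With normexp background correction they were -0.20 at day 2 and 0.14 at day 30, and the day 5 value was -0.068 with median scaling.

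ITGAX encodes CD11c, the alpha chain found on monocytes, dendritic cells and neutrophils. Its probe A_23_P312132 had levels of 1.76, 1.77, 1.47, 1.45 and 1.47 before irradiation and of 2.45, 2.30, 1.81, 1.16 and 2.17 at day 30. Replicate 4 was the exception, below all pre-irradiation arrays at day 30, and the other 4 arrays were above all of them. On day 2 the spot of replicate 1 was marked as an outlier and left out, and the other 4 arrays stood at 2.14, 1.96, 1.56 and 2.14, each above its partner. The mean difference was 0.41 at day 2 (n = 4 pairs, adjusted p = 0.348 in limma), -0.10 at day 5 and 0.39 at day 30 (n = 5 pairs, adjusted p = 0.883 and 0.341). The day 2 value was 0.26 with normexp background correction. The other ITGAX probe, A_33_P3213169, lies upstream of it and is annotated on an Ensembl transcript. Its differences were 0.27, 0.02 and 0.08, and the probes of ITGAX followed each other with r = 0.19 over the 19 arrays that measured both.

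**Figure D2:**
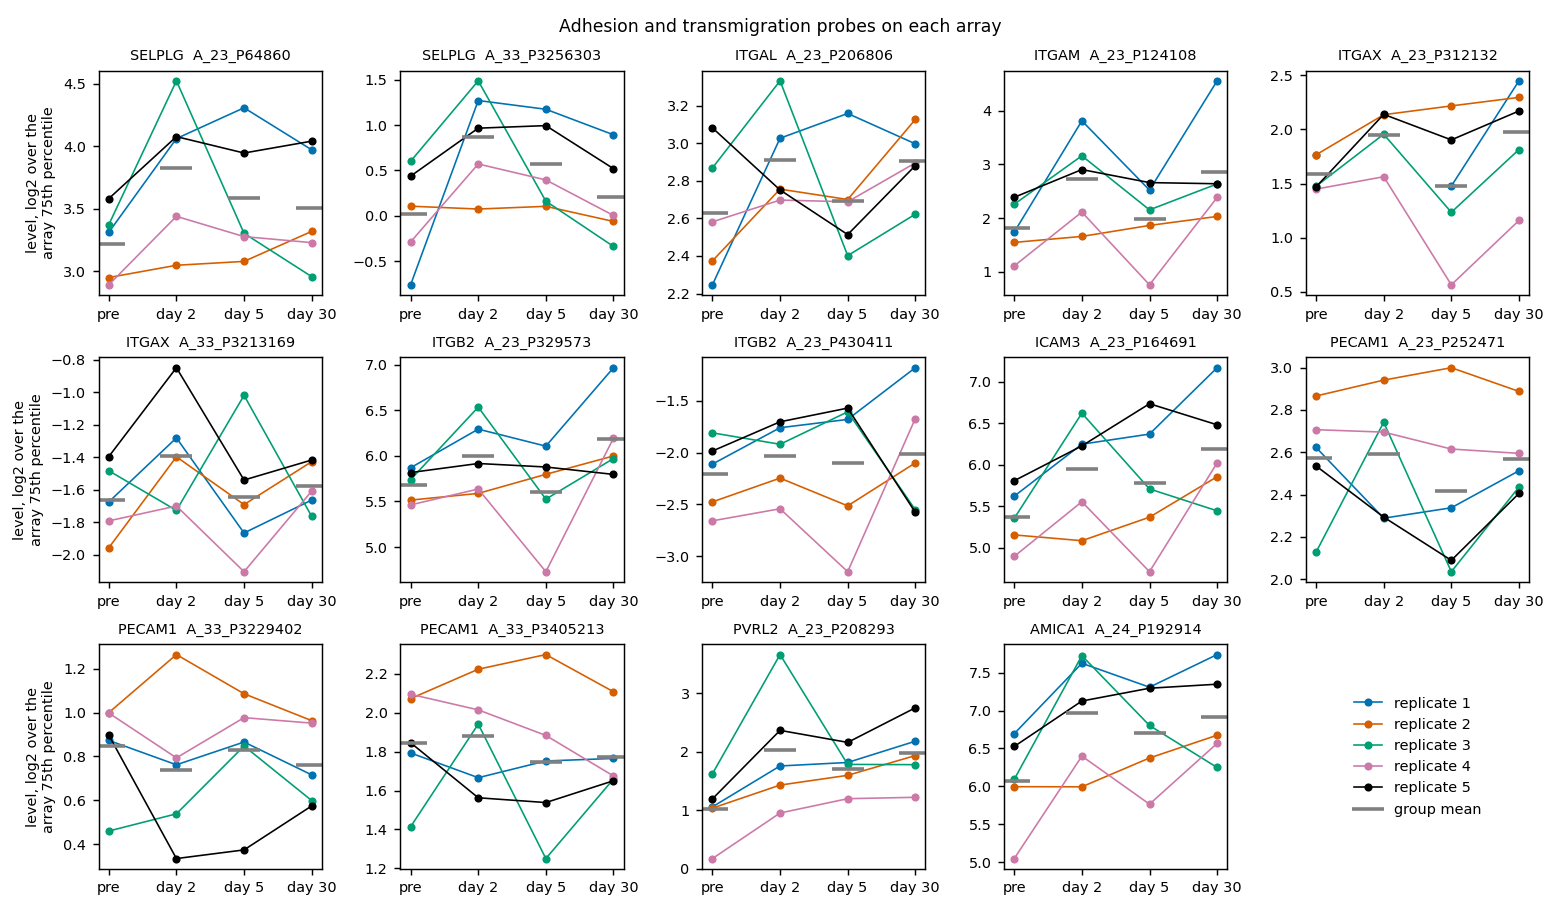
Each panel shows 1 probe, with its level on each array (log2 processed signal minus the 75th percentile of the array) against sampling day. Lines join arrays of the same replicate number and grey bars are group means of 5 arrays (4 for ITGAX A_23_P312132 at day 2). Replicate 2 is nearly level in the panel of SELPLG A_33_P3256303, and replicate 1 at day 30 stands alone in the ITGAM panel.

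ICAM3 encodes the intercellular adhesion molecule of resting leukocytes, a ligand of LFA-1 that is abundant on neutrophils, monocytes and lymphocytes. Its levels were 5.62, 5.16, 5.36, 4.90 and 5.81 before irradiation and 7.17, 5.86, 5.45, 6.02 and 6.48 at day 30. All 5 arrays of day 30 were above their partners, replicate 3 by only 0.09, and 4 of them were above every pre-irradiation array. The levels at day 2 were 6.25, 5.09, 6.62, 5.56 and 6.23, and those at day 5 were 6.37, 5.37, 5.71, 4.71 and 6.73. Replicate 2 at day 2 and replicate 4 at day 5 were the arrays below their partners. The mean difference was 0.58 at day 2 (standard error 0.20, n = 5 pairs, adjusted p = 0.262 in limma), 0.41 at day 5 (standard error 0.19, adjusted p = 0.475) and 0.83 at day 30 (standard error 0.23, adjusted p = 0.164). With normexp background correction the day 2 difference was 0.00315, and on the 5 slides the day 30 difference ran from -0.36 to 1.81 and was above 0 on 4.

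PECAM1 (CD31) sits at endothelial junctions and on platelets, monocytes, neutrophils and T cell subsets, and binds itself across cells. Its probe A_23_P252471 had levels of 2.62, 2.87, 2.13, 2.71 and 2.54 before irradiation and of 2.29, 2.94, 2.74, 2.70 and 2.29 at day 2. The arrays went both ways, replicate 3 up by 0.61 and replicate 1 down by 0.33, and replicate 2 was highest in each of the 4 groups. The mean differences at days 2, 5 and 30 were 0.02, -0.16 and -0.0045 for this probe, -0.11, -0.02 and -0.085 for A_33_P3229402 and 0.04, -0.10 and -0.07 for A_33_P3405213. Their 95% confidence intervals together reached from -0.50 to 0.43 on the log2 scale, with n = 5 pairs, so that differences within that range could not be resolved. With normexp background correction A_23_P252471 was at -0.40 and A_33_P3405213 at -0.25 at day 2. The probes A_23_P252471 and A_33_P3405213, which lie within the same stretch of chromosome 17 (from 62400544 and from 62400672), followed each other with r = 0.87. The probe in the part that encodes the cytoplasmic tail followed them with r = 0.15 and r = 0.12.

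**Figure D3:**
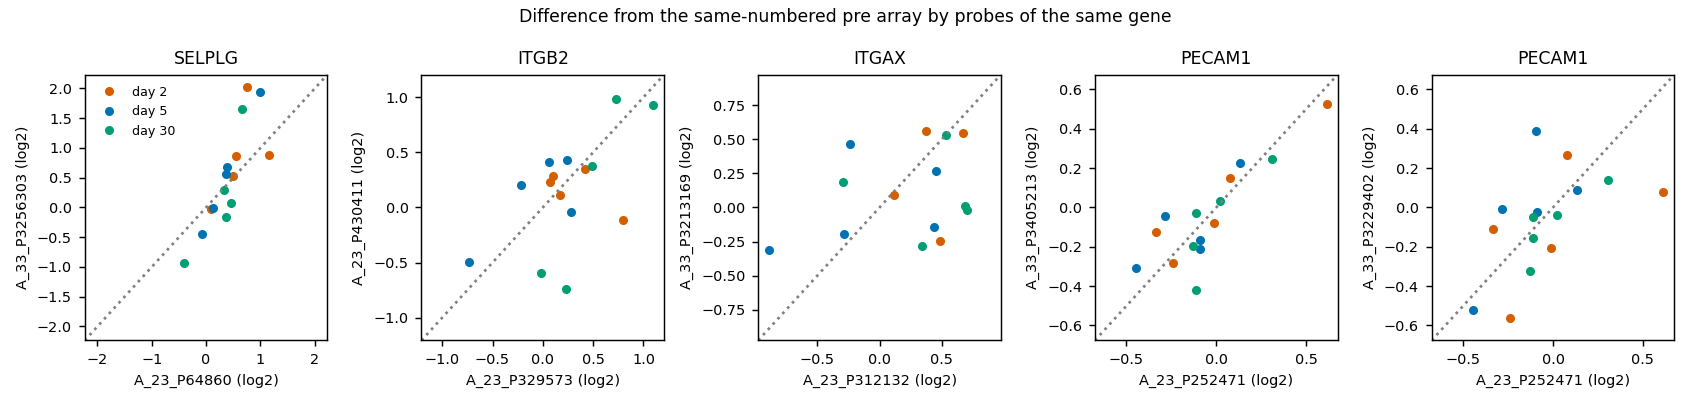
For the genes with more than 1 kept probe, each point is the log2 difference of 1 pair of arrays of the same number, a later day minus pre-irradiation, on 1 probe against another of the same gene. The dotted line marks equal differences. Points lie near it for PECAM1 A_23_P252471 with A_33_P3405213, follow a steeper course for SELPLG, where A_33_P3256303 moved further, and scatter for ITGAX.

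PVRL2, now called NECTIN2, encodes nectin-2 (CD112), a junctional molecule of endothelial and epithelial cells that is also found on myeloid cells and is bound by the lymphocyte receptors DNAM-1 and TIGIT. Its kept probe (A_23_P208293, chromosome 19, 45392321 to 45392380, forward strand) had levels of 1.06, 1.04, 1.62, 0.17 and 1.19 before irradiation and of 1.76, 1.43, 3.67, 0.95 and 2.37 at day 2. The levels at day 5 were 1.82, 1.60, 1.78, 1.20 and 2.16, and those at day 30 were 2.18, 1.94, 1.78, 1.22 and 2.75. Every later array was above the pre-irradiation array of its number. Replicate 4 was the lowest array in all 4 groups, and replicate 3 stood out at day 2. At days 2 and 5 replicates 2 and 4 lay below the highest pre-irradiation array, and at day 30 only replicate 4 did.

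The mean difference of PVRL2 was 1.02 at day 2 (standard error 0.24, n = 5 pairs, adjusted p = 0.178 in limma), 0.70 at day 5 (standard error 0.17, adjusted p = 0.307) and 0.96 at day 30 (standard error 0.22, adjusted p = 0.141). These are 2.03-fold, 1.62-fold and 1.94-fold higher signals. On the same slide, where the pairs are of other numbers, the day 30 array was higher than the pre-irradiation array on 5 of 5 slides, by 0.19 to 2.58, and the day 2 array on 3 of 5, by -0.19 to 2.47. With the slide as the block the adjusted p-values were 0.403 at day 2, 0.876 at day 5 and 0.460 at day 30 in limma. The day 2 difference was 0.54 with normexp background correction, and over all alternatives the differences lay between 0.54 and 1.17 at day 2, 0.57 and 0.83 at day 5, and 0.77 and 1.16 at day 30. The probe of PVRL2 that was left out is annotated on another transcript and was near background on most arrays, so it could not be compared. The differences of PVRL2 therefore rest on the kept probe alone.

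AMICA1 encodes the junctional adhesion molecule JAML, the name that the macaque gene table gives, which neutrophils, monocytes and some T cells carry and which binds the coxsackievirus and adenovirus receptor of epithelial and endothelial cells. Its kept probe (A_24_P192914, chromosome 11, 118064689 to 118064748, reverse strand) had levels of 6.70, 6.00, 6.09, 5.05 and 6.53 before irradiation and of 7.62, 5.99, 7.73, 6.40 and 7.13 at day 2. At day 5 they were 7.31, 6.37, 6.80, 5.76 and 7.30, and at day 30 they were 7.74, 6.68, 6.25, 6.57 and 7.35. All arrays of days 5 and 30 were above their partners, and at day 2 replicate 2 was level with its own while the other 4 were above. Its mean difference was 0.90 at day 2 (standard error 0.24), 0.64 at day 5 (standard error 0.14) and 0.84 at day 30 (standard error 0.22), with adjusted p = 0.192, 0.288 and 0.155 in limma for n = 5 pairs. Within slides it was above 0 on 3, 4 and 3 of 5, and with normexp background correction it was 0.36 at day 2. With the slide as the block the adjusted p-values of AMICA1 were 0.449, 0.876 and 0.461 in limma. Its unadjusted p-value in that fit was not under 0.05 on any of the days.

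Under the alternatives a few of these values crossed the rule for a call. At day 2 PVRL2 was called on the deposited log2 values, AMICA1 in a fit of all 20 arrays, and both of them without replicate 2. At day 30 PVRL2 was called on the deposited log2 values, PVRL2 and ICAM3 with normexp background correction, and those and AMICA1 among the probes well above background on all 20 arrays. In these fits the rule also called between 327 and 899 probes of the whole array. The deposited table holds 7 of the 14 member probes.

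Markers of blood cell types differed together with the members. The marker counts come from the fit blocked by replicate number and were not tested under the alternatives. Of 11 neutrophil markers tested, 6 were higher at day 2, 7 at day 5 and 5 at day 30 at an unadjusted p-value under 0.05, with median differences of 1.01, 0.60 and 0.80, and CSF3R, the receptor of granulocyte colony-stimulating factor and the marker of highest signal, was higher by 1.01, 0.61 and 0.71. The log2 of their summed level was 7.99 ± 0.55 before irradiation (SD, n = 5), 8.99 ± 0.68 at day 2, 8.58 ± 0.68 at day 5 and 8.72 ± 0.62 at day 30. FCGR3B was the neutrophil marker below the filter. Of 8 monocyte markers tested, 5, 3 and 5 were higher, with medians of 0.62, 0.38 and 0.65, led in signal by CD14 at 0.60, 0.42 and 0.50. Their summed level was 7.60 ± 0.56 before irradiation and 8.24 ± 0.39, 7.95 ± 0.63 and 8.21 ± 0.38 on the later days, and LYZ, MARCO and FCGR1A were not tested.

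Lymphocyte markers went the other way. Of 16 T and NK cell markers, 13 were lower at day 2 at an unadjusted p-value under 0.05, 5 at day 5 and 3 at day 30, when 3 others were higher, and the medians were -0.67, -0.40 and -0.29. KLRB1, which encodes the lectin-like receptor CD161, was the only marker of these lists called against pre-irradiation, lower, by -1.66 at day 2 (adjusted p = 0.0962 in limma). Between days 2 and 30 KLRB1 and the granzymes GZMA and GZMK were called, higher by 2.30, 2.53 and 1.93 (adjusted p = 0.0959 in limma). CD3D, the marker of highest signal, differed by -0.56, -0.07 and -0.29. Of 7 B cell markers tested, 5, 4 and 4 were lower, with medians of -0.53, -0.49 and -0.51. Their summed levels were 8.05 before irradiation and 7.36, 7.64 and 7.70 afterwards for T and NK cells, and 7.51, 7.01, 6.94 and 6.79 for B cells.

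All 10 platelet markers tested were higher at day 2 at an unadjusted p-value under 0.05, with a median of 1.45 and PF4, the most intense, higher by 1.49. At day 5 there were 2, and at day 30 there were 0 higher and 2 lower. The summed level was 6.72 ± 0.80 before irradiation and 8.17 ± 0.84, 7.22 ± 0.55 and 6.54 ± 0.30 afterwards. Erythroid markers, led by ALAS2, had median differences of -0.21, 0.10 and -0.81, with summed levels of 10.8 before irradiation, 10.6 at day 2 and 10.1 at day 30, and the highest mean at day 5. Of the endothelial markers 5 of 8 were tested, with KDR, EMCN and ROBO4 below the filter, medians of 0.99, -0.03 and -0.27, and a summed level of 1.59, 2.31, 1.84 and 1.12. CLDN5, their most intense, differed by 1.33, 0.93 and -0.13 at days 2, 5 and 30.

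**Figure D4:**
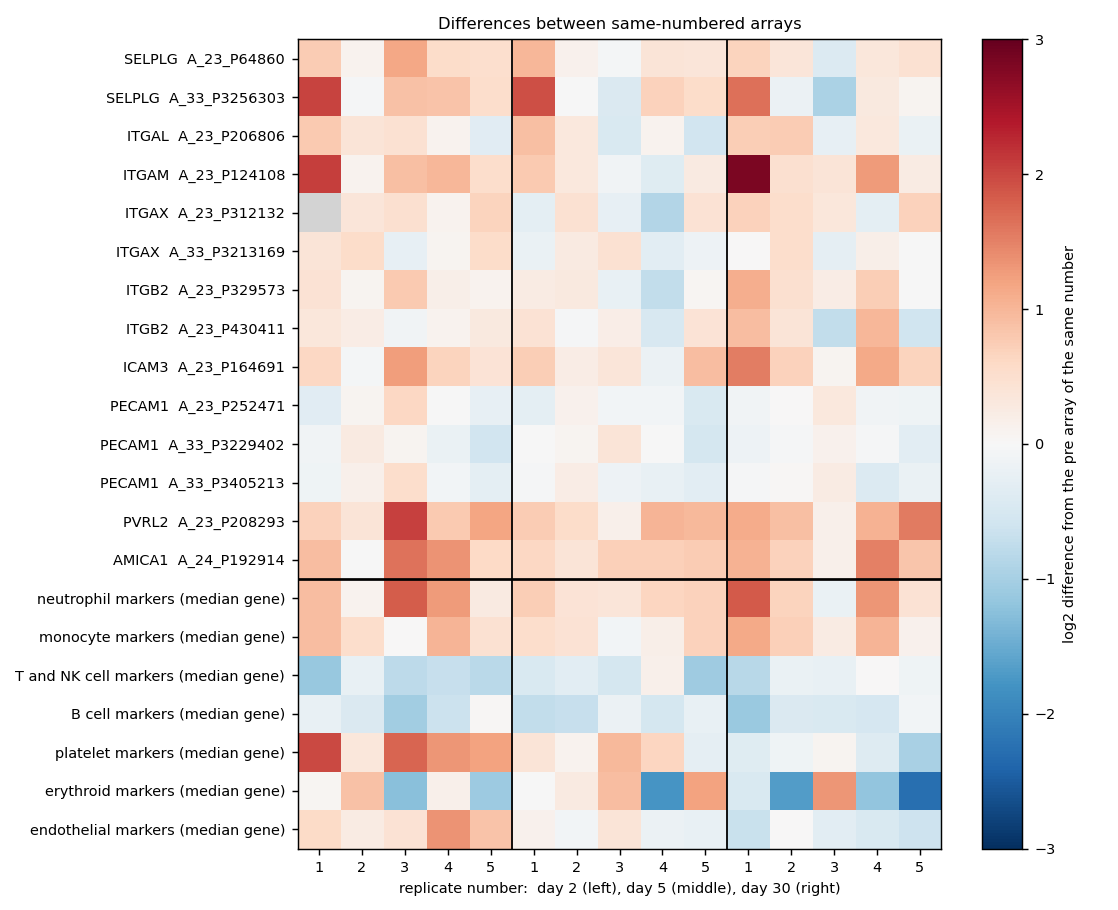
Each cell is the log2 difference of 1 pair of arrays of the same replicate number, a later day minus pre-irradiation, for the 14 member probes (above the line) and for the median gene of each list of blood cell markers (below it); grey marks the missing array. The rows of AMICA1, PVRL2 and neutrophil markers have their largest day 2 difference in replicate 3, and the PECAM1 rows stay pale.

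Over the 20 arrays, after the mean of each replicate number was taken off, the mean level of the neutrophil markers followed AMICA1 with r = 0.93, ICAM3 with r = 0.91, PVRL2 with r = 0.84, and the pair of SELPLG probes with r = 0.80 and 0.69. With the B cell markers the same probes went the other way, with r = -0.73, -0.71, -0.81, -0.66 and -0.56 in that order. The SELPLG probes also had r = 0.48 and 0.56 with the platelet markers. ITGAM followed the monocyte markers with r = 0.87 and the neutrophil markers with r = 0.75, and ITGB2 A_23_P329573 followed these lists with r = 0.74 and 0.70. ITGAL had r = 0.59 with the neutrophil markers and r = -0.08 with those of T and NK cells. For the 3 PECAM1 probes the values with neutrophil markers lay between -0.35 and 0.19. The 20 arrays share slides and sampling days and may share animals, so these correlations are descriptions, and the part of cell composition in the members' differences was not tested.

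Among the members themselves, likeness over the arrays varied from pair to pair. AMICA1 had r = 0.88 with ICAM3 and 0.87 with PVRL2, PVRL2 had r = 0.87 with SELPLG A_23_P64860, and ITGAM had r = 0.86 with ITGB2 A_23_P329573, the beta chain it pairs with. ITGAM was less like PVRL2, with r = 0.55, and SELPLG A_23_P64860, with r = 0.46. ITGAX A_23_P312132 had r = 0.71 with the same ITGB2 probe and ITGAL had r = 0.55.

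The genes outside the members whose levels were most like theirs were found over the same 20 arrays. For AMICA1 they were SLC16A3, a lactate transporter, with r = 0.99, OXER1, a receptor of eosinophils and neutrophils for oxidized arachidonic acid (r = 0.97), and PI16 (r = 0.96). ICAM3 was nearest to COL4A3BP (r = 0.96), the ceramide transfer protein, to DOK3 (r = 0.95), an adaptor of myeloid and B cells, and to ATP11A (r = 0.94). ITGAM was nearest to AOAH (r = 0.93), which deacylates bacterial lipopolysaccharide, to HK2 (r = 0.93), a hexokinase, and to FGD4 (r = 0.92). For ITGB2 they were RAB27A (r = 0.93), which serves granule release, APLP2 (r = 0.91) and REL (r = 0.89), a subunit of NF-kappa-B. For SELPLG they were FCGRT (r = 0.94), the neonatal Fc receptor, XPO6 (r = 0.94) and the integrin chain ITGA5 (r = 0.93), and for PVRL2 they were MTCH1, ZFYVE1 and NRBF2, with r between 0.92 and 0.93. ITGAL was nearest to HLA-F, TAPBP and PI4KA (r from 0.81 to 0.84), ITGAX to DYRK1A, HNRNPK and MPZL2 (r from 0.86 to 0.87 over 19 arrays), and PECAM1 to B3GALTL, PREP and BNIP3 (r from 0.81 to 0.82).

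The rest of the adhesion and transmigration machinery was followed through 73 genes in 8 lists, of which 60 had a tested probe, and the brightest probe of each gene was used. None of the 60 was called on any day. The counts of these lists come from the fit blocked by replicate number and were not tested under the alternatives. At an unadjusted p-value under 0.05, the day 2 count of member probes fell from 6 to 2 with the slide as the block. Over all tested probes, normexp background correction moved the count of higher probes from 1779 to 1188 at day 2. At day 30 it moved that count from 1712 to 2572. At the same threshold, 22 of the 60 genes were higher and 2 lower at day 2. There were 9 higher and 2 lower at day 5, and 13 higher and 4 lower at day 30. As shares of the 60 genes these are 36.7%, 15% and 21.7% higher and 3.33%, 3.33% and 6.67% lower, beside 8.91%, 7.2% and 8.58% of all tested probes higher and 5.92%, 4.15% and 8.97% lower.

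Among rolling receptors and ligands, 3 of 6 tested genes were higher at day 2, 1 at day 5 and 2 at day 30. SELP, the P-selectin of platelets and endothelium that binds PSGL-1, was higher by 1.66 at day 2 in 5 of 5 pairs (adjusted p = 0.137 in limma). It differed by 0.38 at day 5 and by 0.32 at day 30. PODXL2, endoglycan, a sulfated selectin ligand, differed by 1.25, 0.77 and 0.78. With 1 gene of this list passing at day 5, SELP and PODXL2 did not both pass there. Of 9 tested enzymes and chaperones that give PSGL-1 its sugars and sulfate, 2 were higher on each day. C1GALT1C1, the chaperone of the core-1 galactosyltransferase, was higher by 0.81, 0.59 and 0.70, and ST3GAL4, a sialyltransferase for selectin ligands, by 1.22, 0.93 and 0.69, with adjusted p-values of 0.149 or more in limma.

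In the list of other integrin chains, 5 of 12 were higher and 1 lower at day 2, 3 higher and 1 lower at day 5, and 1 higher and 2 lower at day 30, with medians of -0.09, -0.09 and -0.26. ITGAV, the alpha chain of the vitronectin receptors, was higher by 0.71, 0.68 and 1.30 in 5 of 5 pairs each day, with its smallest adjusted p of 0.127 at day 30 in limma. ITGA5, of the fibronectin receptor, was higher by 0.76 and 0.63 at days 2 and 5 and differed by 0.25 at day 30, which did not pass. ITGB5, a partner of ITGAV, was higher by 1.56 and 0.60 at days 2 and 5 and differed by -0.03 at day 30. The platelet integrin chains ITGA2B, which is also among the platelet markers, and ITGB3, chosen after their values were seen, were higher by 1.46 and 1.95 at day 2, when the platelet markers given above were higher, and their part in the differences of this list and of SELP was not tested. Of 4 tested counter-receptors of the beta-2 integrins, 1 passed at day 2, 0 at day 5 and 1 at day 30, and the medians were -0.20, 0.09 and -0.17. ICAM2 was higher by 0.54 at day 2, and ICAM5 was lower by -0.67 at day 30, in 5 of 5 pairs each. At day 2 the other 3, ICAM1, ICAM4 and ICAM5, had differences of -0.19, -0.22 and -0.43.

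Of 9 tested molecules of endothelial junctions and their leukocyte partners, 5 were higher at day 2, 2 at day 5, and 3 at day 30 with 1 lower. SIRPA, a myeloid receptor for CD47, differed by 0.64, 0.38 and 0.60 at days 2, 5 and 30. CD177, a neutrophil protein that binds PECAM1, differed by 0.88, 0.43 and 1.41, and was higher in 3, 5 and 5 of 5 pairs. F11R, junctional adhesion molecule A, differed by 0.96, 0.30 and 0.54. With 2 genes of the list passing as higher at day 5, not all 3 of these passed there. ESAM, of endothelial and platelet junctions and also among the endothelial markers, was higher by 0.99 at day 2, level at day 5 (-0.03) and lower by -0.74 at day 30, in 5 of 5 pairs at the first and the last. Of the nectins and their lymphocyte receptors only CD226 and TIGIT, the receptors that bind PVRL2, were tested among 8, and their differences lay between -0.28 and 0.37.

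The list of proteins that switch integrins on held 15 tested genes, of which 6 were higher and 1 lower at day 2, 1 and 1 at day 5, and 4 higher at day 30. VCL, vinculin, differed by 1.36, 0.45 and 0.88 at days 2, 5 and 30. APBB1IP, the RIAM adaptor that brings talin to the membrane, differed by 0.46, 0.17 and 0.44. At day 5 only 1 gene of this list passed as higher, so these did not both pass. Of the related adaptors, SKAP1, of T cells, was lower by -0.70 at day 2 and -0.50 at day 5 in 5 of 5 pairs and differed by -0.21 at day 30, which did not pass. SKAP2, of myeloid cells, was higher by 0.64 at day 2 and 0.75 at day 30 and differed by 0.22 at day 5, which did not pass. Of 3 sheddases ADAM8 was higher by 0.58 at day 30 (adjusted p = 0.197 in limma), and ADAM17, which cuts L-selectin from the leukocyte surface, differed by 0.35, 0.13 and 0.28.

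**Figure D5:**
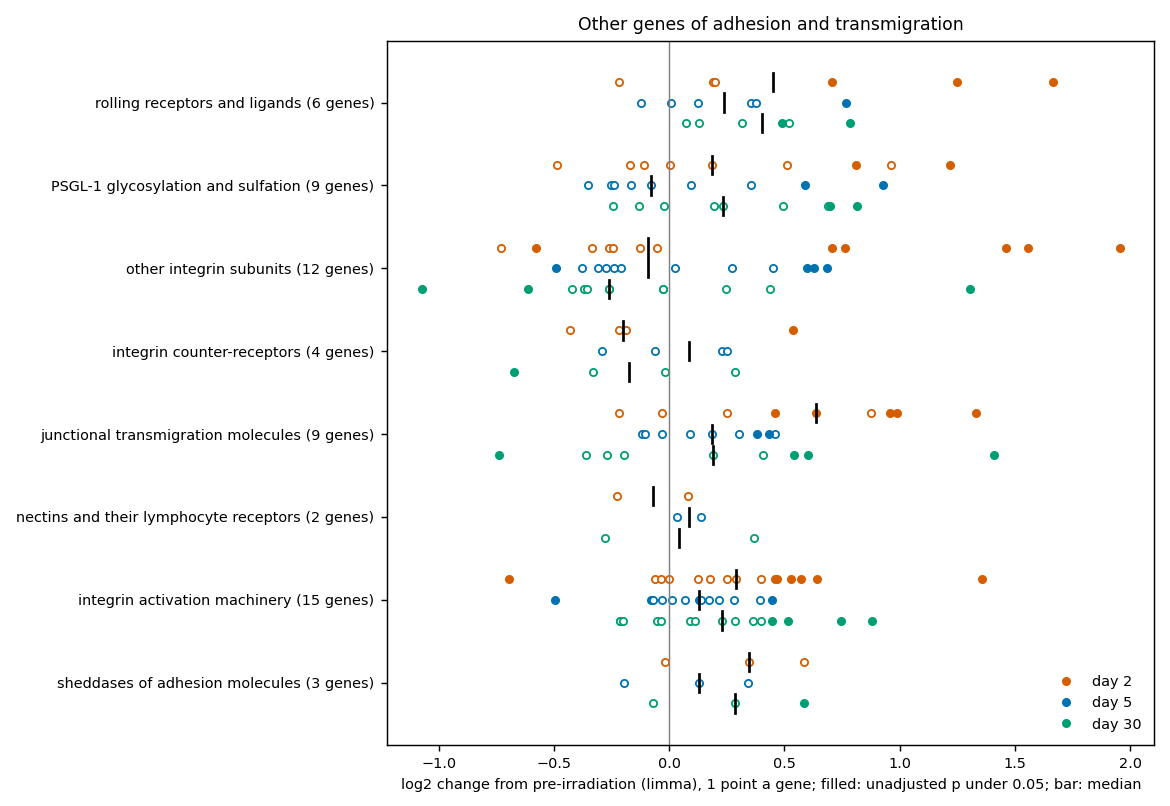
Each point is the log2 change of 1 gene from pre-irradiation in limma, at each later day, in 8 lists of adhesion and transmigration genes; filled points have an unadjusted p-value under 0.05 and black bars are list medians. The rightmost point is that of ITGB3 at day 2, at 1.95.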

How the data were processed

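Whole blood RNA was measured on 20 arrays, 5 in each group. For every array the authors deposited its Feature Extraction file (version 10.7 per the submitters' processing notes, 12.0.2.2 per the file headers). Its processed signal is a background-subtracted intensity that is not normalized between arrays. The deposited table of log2 values holds a filtered subset of probes, and at least 96.9% of its values on each array equal the averaged log2 intensity plus 1 constant, within 0.001. The deposited flags (well above background, outlier spots) were used as given.

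Control spots and outlier spots were left out, log2 signals of a probe's spots were averaged, and each array was centred on its 75th percentile. Probes well above background on at least 5 arrays were tested where at least 4 of 5 pairs had a value, in limma 3.58.1 (R 4.3.3), each comparison on its own 10 arrays, blocked by replicate number. Calls needed p under 0.005 and an FDR under 10% after the Benjamini-Hochberg adjustment chosen here. Those limits are the ones in the study's methods. The block was kept because those methods pair comparisons by animal. The labels do not say that a number is an animal. Deviations of same-numbered arrays from their group means correlated between 0.17 and 0.48 for day 2 and pre-irradiation, 0.12 and 0.65 for day 5, and 0.04 and 0.43 for day 30. In these blocked fits a p-value sets the mean difference against the spread of differences between same-numbered arrays, which limma estimates with help from all tested probes.

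The members, the gene lists and the tests were chosen with earlier results of these data known. Named from the lists were genes with an unadjusted p under 0.05 on at least 2 of the 3 days and, where a list had fewer than 2 such genes, the 2 of smallest p, and for each member the 3 genes outside the list of highest Pearson correlation. The fit was tested on simulated data. The share of spots well above background ran from 50.9% to 67.3% over the arrays (67.3% on replicate 3 of day 5, at most 58.8% elsewhere), and precision is limited by how many arrays there are. No member spot was saturated. Blood counts and qRT-PCR were not analysed here. Alternatives were quantile normalization, median scaling, normexp with an offset of 50, no filter, a filter on all 20 arrays, a fit without the replicate block, the deposited log2 values, 1 fit of all 20 arrays with or without the slide, a paired test probe by probe, an FDR under 5%, and leaving out each replicate. The slide in place of the replicate as the block was added after seeing the data. Tables and figures were made in Python 3.11.15 (pandas 2.3.3, matplotlib 3.10.9).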

Additional observations from a re-analysis of the deposited data

Results flagged for a closer look

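In groups of 4 or 5 arrays, 1 array of a group stood apart from the rest by the gap to its nearest neighbour in 3 of 56 groups of member levels, and chance alone flags about 1 in 20. ITGAM on replicate 1 of day 30 had a level of 4.56 where the group median was 2.64. PECAM1 A_33_P3229402 on replicate 3 before irradiation had a level of 0.46 against a group median of 0.90, and PECAM1 A_33_P3405213 on replicate 2 of day 30 had a level of 2.11 against 1.67.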

How the results depend on the processing

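Of 401 member values recomputed under the 9 alternatives that use another background correction or scaling, the deposited log2 values or fewer replicates, 371 kept their direction and 30, of 16 differences, did not. The other 8, which change the block, the filter or the FDR, leave a mean difference as it is, except for ITGAX A_23_P312132 with its missing array, and bear on p-values and calls alone. The count of member probes called, 0 on every comparison, became 1 at day 2 and 1 at day 30 on the deposited log2 values, 1 at day 2 with all 20 arrays in one fit, and 2 and 3 at day 30 with normexp and with the filter on all 20 arrays; with each replicate left out it lay between 0 and 2 at day 2, where only the fit without replicate 2 gave calls (AMICA1 and PVRL2). Over the alternatives, the probes called of the whole array ranged from 0 to 681 at day 2, 0 to 9 at day 5 and 0 to 899 at day 30, and without replicate 2 the day 2 count was 681. The count of members higher at an unadjusted p under 0.05 was 1 with normexp at day 2, 1 with median scaling at day 5, 3 at day 30 in the paired test probe by probe, and 2, 0 and 3 with the slide as the block. Without the replicate block it was 5, 1 and 5, and that fit, unpaired, called 0 members on each day. With each replicate left out it was 5 to 7, 2 to 3 and 4 to 6.

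Normexp reversed ITGAL (-0.20), ITGB2 A_23_P329573 (-0.23), PECAM1 A_23_P252471 (-0.40) and PECAM1 A_33_P3405213 (-0.25) at day 2 and ITGAX A_33_P3213169 (-0.00897) at day 5. After normexp the 10th percentile of the log2 signal was 10.2 and 8.20 on replicates 1 and 3 of day 2, 8.24 and 7.09 on replicates 1 and 3 of day 30, and at most 6.61 on the other arrays, so low signals are compressed there, and the median difference of all probes moved to 0.12 at day 2 and 0.11 at day 30. Median scaling, which moved the median difference of all probes at day 5 from 0.02 to -0.11, reversed ITGAL (-0.068), ITGAX A_33_P3213169 (-0.11) and ITGB2 A_23_P430411 (-0.026) at day 5 and PECAM1 A_23_P252471 (0.039) at day 30. Quantile normalization reversed PECAM1 A_23_P252471 (-0.044) and A_33_P3405213 (-0.013) at day 2, and ITGAX A_33_P3213169 (-8.34e-05) and PECAM1 A_33_P3229402 (0.00466) at day 5. The cause of these reversals was not tested.

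With each replicate left out, the differences that changed sign ranged at day 2 from -0.13 to 0.11 for PECAM1 A_23_P252471, -0.20 to 0.0069 for A_33_P3229402 and -0.085 to 0.12 for A_33_P3405213. At day 5 they ranged from -0.15 to 0.22 for ITGAL, -0.24 to 0.090 for ITGAX A_23_P312132, -0.10 to 0.10 for A_33_P3213169, -0.16 to 0.092 for ITGB2 A_23_P329573 and -0.12 to 0.11 for PECAM1 A_33_P3229402. At day 30 they ranged from -0.027 to 0.18 for ITGAX A_33_P3213169, -0.0070 to 0.43 for ITGB2 A_23_P430411, -0.083 to 0.027 for PECAM1 A_23_P252471, -0.15 to 0.014 for A_33_P3405213 and -0.18 to 0.47 for SELPLG A_33_P3256303. The differences of PVRL2, AMICA1, ICAM3, ITGAM and SELPLG A_23_P64860 kept their direction on all 3 days under those of the 9 alternatives that measured them. The slide with the replicate block could be fitted only over all 20 arrays.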
